A study of Mus musculus with 7 samples.

Results

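Genes that encode transcription factors of microglial identity were followed in microglia carrying lipid droplets: Spi1, Irf8, Runx1, Sall1, Mef2a, Mef2c, Maf, Cebpa and Cebpb. They were chosen by symbol, and all 9 of 9 were found among the 50686 genes of each table. Microglia were sorted from the forebrain of male C57BL/6 mice 4 days after 45 min of middle cerebral artery occlusion, by surface CD11b and CD45 and by Bodipy, a dye for neutral lipids. The young group held 4 mice of 3 to 4 months (14C, 18C, 23C and 29C) and the old group 3 mice of 21 to 22 months (2posI, 3posI and 4posI), with 1 library per mouse and no drug treatment. Every library was ischemic and Bodipy+, so both ages share the stroke and the dye gate, and neither sham-operated mice nor Bodipy- cells enter the comparison. The question was whether the messenger RNA of these factors differed between the ages.

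Microglia are the resident macrophages of the brain, and their identity is held by factors that act in layers. PU.1 (the protein of Spi1) opens myeloid enhancers together with IRF8, RUNX1 and C/EBP proteins, and SALL1, MEF2 and MAF proteins act on top of this shared myeloid base. SALL1 is, among brain myeloid cells, largely a feature of microglia, and it depends on signals of the brain environment such as TGF-beta.

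No difference between old and young mice was detected for any of the 9 genes. At an adjusted p under 0.05 in edgeR's quasi-likelihood test, 0 of 9 were called, where 141 of the 17559 genes tested (0.803%) were. The count was also 0 of 9 with limma-voom and with DESeq2. Without adjustment, 0 of 9 had a p under 0.05 in edgeR, against 18.9% of all genes tested. The ranges of the ages overlapped for all 9 in CPM (counts relative to library size, scaled by the TMM method), while they were apart for 17.7% of all genes. The edgeR estimates were higher in old mice for 5 genes and lower for 4. Their median log2 fold change was 0.00, beside -0.01 over all genes. In TPM, which also divides by transcript length, this balance was not kept. On the log2(TPM + 1) scale only Maf was higher in old mice (0.30). The other genes ran from -0.02 (Sall1) to -0.53 (Runx1), with Irf8 at -0.30 and Mef2c at -0.31. The median over all genes was -0.07 on that scale, and 0 of 9 passed there (limma adjusted p under 0.05). What varied was the individual mouse: Sall1, Mef2c and Cebpb differed by 2.58-fold to 3.67-fold between the lowest and the highest old library.

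**Figure D1:**
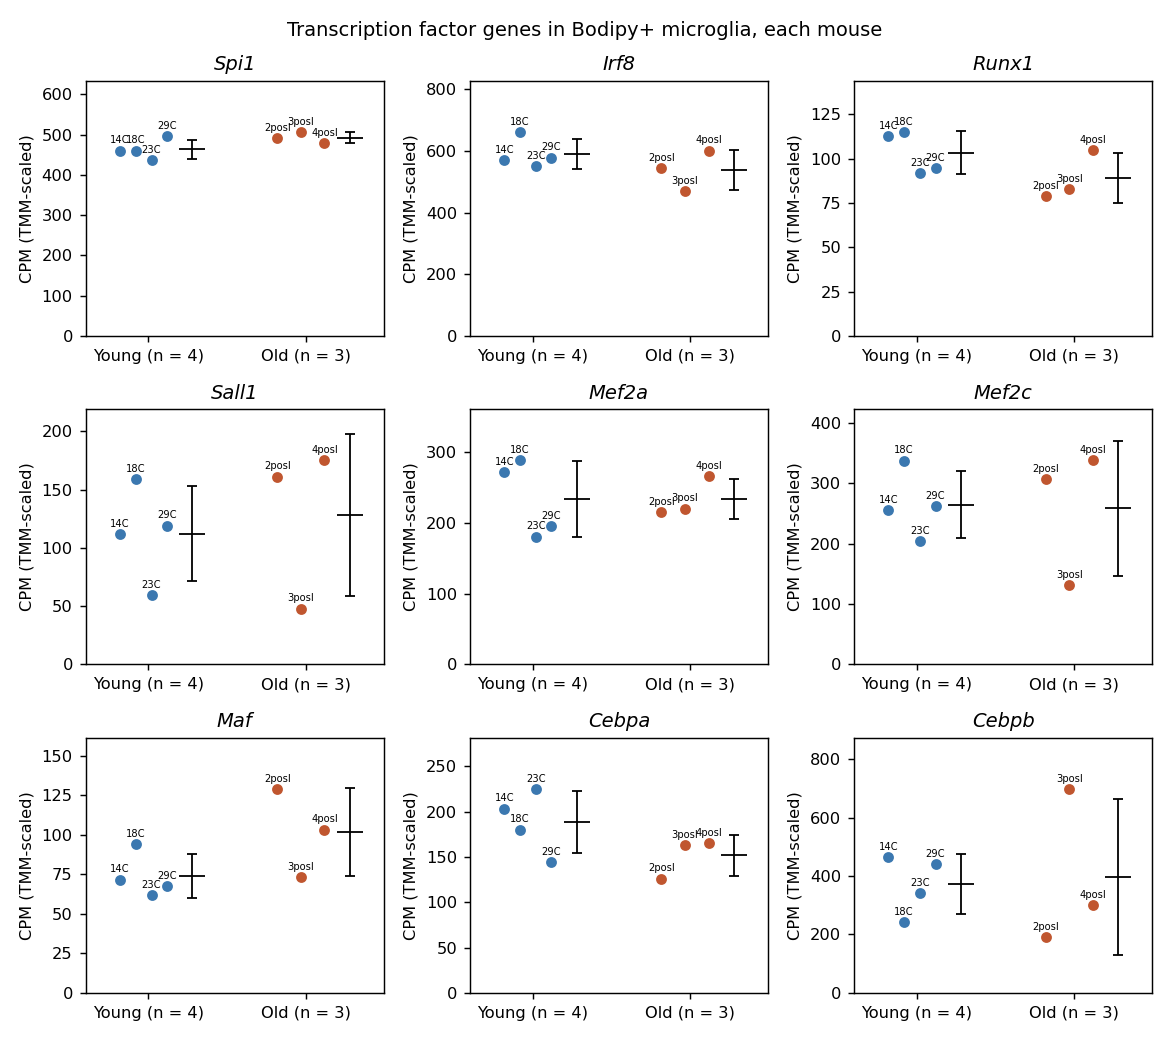
Level of each gene (vertical axis, TMM-scaled CPM, from 0) in each library, young in blue and old in orange; the black bar and whiskers give the mean and SD of each age. The ages overlap in every panel, and 3posI lies far from the other old mice in the panels of Sall1 (47.99 CPM), Mef2c (131.2 CPM) and Cebpb (698.1 CPM).

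Total expected counts per library ran from 36574083 to 53002386, and each gene had at least 1878 counts in every library, so counting error was small beside the spread between mice. The microglial label was checked against 10 markers, all 10 counted in all 7 libraries, whose summed level was 21060 to 31500 CPM in young mice and 24920, 11180 and 22840 CPM in 2posI, 3posI and 4posI. Monocyte markers (7 of 7 counted in all libraries) summed to 181.2 to 480.7 CPM in young mice and to 448.0, 2788 and 210.9 CPM in the old, with all 7 highest in 3posI. Markers of border-associated macrophages, the macrophages of meninges and vessels (7 of 7 counted), summed to 129.3 to 469.9 CPM in young mice. In the old they summed to 542.9, 1522 and 170.6 CPM, and 5 of the 7 were highest in 3posI. The exceptions were highest in 2posI: Mrc1 (79.20 CPM, 78.81 in 3posI) and Cd163 (27.44 CPM, 23.18 in 3posI). Dendritic cell markers (6 of 6 counted) reached 60.11 CPM in 3posI and 4.37 to 13.02 CPM elsewhere. In 3posI, Ccr7 alone gave 44.77 CPM of that sum, and only 3 of the 6 were highest there. Neutrophil markers summed to 16.04 to 163.6 CPM, with Ly6g and Camp at 0 in some libraries, and T and NK cell markers to 0.045 to 3.37 CPM, with Cd3e, Cd3d, Cd3g, Trac and Cd8a at 0 in some. Endothelial markers summed to 46.72 to 115.2 CPM, astrocyte markers to 61.74 to 194.9 CPM, oligodendrocyte markers to 44.37 to 69.22 CPM and neuronal markers to 0.92 to 3.90 CPM. The library of 3posI thus stood apart from the others, and the estimate of each of the 9 genes in which it was the lowest or highest library is given with and without it.

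Levels between genes were compared in TPM, the share of each transcript in the library after division by transcript length. Over the 7 libraries the order of mean TPM was Irf8 (469.3), Spi1 (412.6), Cebpb (353.6), Mef2c (177.6), Cebpa (97.68), Mef2a (85.99), Runx1 (38.47), Sall1 (31.02) and Maf (23.54). Even Maf lay above 76.0% of the genes tested, and Irf8 above 98.5%. Along this order only Mef2a and Runx1 were neighbours whose ranges did not overlap, with Mef2a higher in 7 of 7 libraries. Irf8 was above Spi1, Spi1 above Cebpb, Runx1 above Sall1 and Sall1 above Maf in 5 of 7 libraries each, so these neighbours were not separated beyond their spread.

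**Figure D2:**
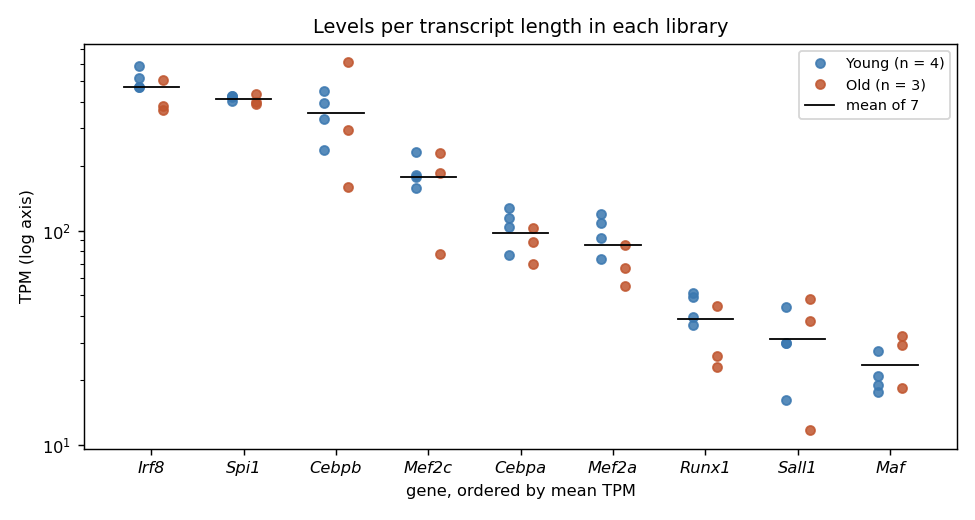
TPM of each gene (vertical log axis) in each library, genes ordered along the horizontal axis by their mean over 7 libraries (black line), young in blue and old in orange. The order runs from Irf8 (469.3 TPM) to Maf (23.54 TPM), and neighbours overlap apart from Mef2a and Runx1.

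Spi1 encodes PU.1, the ETS-family factor on which the whole myeloid lineage depends, and lies at chr2:91082390-91115756 on the plus strand (GRCm38). Its level was 460.7, 460.4, 437.3 and 495.8 CPM in the young mice 14C, 18C, 23C and 29C, and 491.8, 506.6 and 478.9 CPM in the old mice 2posI, 3posI and 4posI. Spi1 was the steadiest of the 9 genes: the old libraries differed by 1.06-fold, and the young mouse 29C lay inside the old range. The log2 fold change was 0.09 (SE 0.12, 95% interval -0.18 to 0.36, edgeR adjusted p = 0.731), and 0.07 without 3posI. Per transcript length the estimate changed sign, to -0.04 on the log2(TPM + 1) scale (limma adjusted p = 0.853).

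Irf8 (chr8:120736358-120756694, plus strand) encodes an interferon regulatory factor that binds DNA together with PU.1. The young mice had 571.0, 661.0, 550.0 and 578.1 CPM and the old mice 544.1, 469.0 and 600.7 CPM. The lowest library was 3posI, and 4posI was above 3 of the 4 young mice. Old mice differed from young by a log2 fold change of -0.13 (SE 0.14, 95% interval -0.46 to 0.19, edgeR adjusted p = 0.651), and by -0.04 without 3posI. The ratio of Irf8 to Spi1 in TPM was 1.12, 1.38, 1.28 and 1.10 in young mice and 0.98, 0.92 and 1.16 in old mice, so that Spi1 exceeded Irf8 only in 2posI and 3posI.

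Runx1 (chr16:92601466-92826149, minus strand) encodes a factor that pairs with CBFB and is needed where blood and microglial progenitors arise. Its level was 112.6, 115.1, 91.77 and 94.54 CPM in young mice and 78.88, 83.00 and 105.0 CPM in old mice. Both 2posI and 3posI were below every young one, and 4posI was above 23C and 29C. This gave a log2 fold change of -0.22 (SE 0.15, 95% interval -0.55 to 0.12, edgeR adjusted p = 0.452). In TPM the young mice had 48.86, 51.35, 36.15 and 39.60 and the old 23.08, 25.89 and 44.33, and the log2(TPM + 1) difference was -0.53 (limma unadjusted p = 0.0498, adjusted p = 0.27). Runx1 kept its negative estimate in all 7 fits with 1 library left out (-0.36 to -0.14).

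Sall1 (chr8:89027235-89044162, minus strand) encodes a zinc finger repressor that keeps microglia in their homeostatic state. The young mice had 111.7, 159.2, 59.52 and 119.1 CPM and the old mice 161.2, 47.99 and 175.1 CPM. Both 3posI and the young mouse 23C were low, while 2posI and 4posI were above all young mice. The log2 fold change was 0.19 (SE 0.45, 95% interval -0.83 to 1.20, edgeR adjusted p = 0.85), the widest interval of the 9. Without 3posI it was 0.58 (edgeR adjusted p = 0.372), and without the old mouse 4posI it was -0.11. In sorted bulk cells, fewer cells of a type and less RNA per cell cannot be told apart, and this holds for each gene here.

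Mef2c (chr13:83504034-83667080, plus strand) encodes a MADS-box factor that restrains the inflammatory response of microglia. Its level was 255.8, 337.8, 204.0 and 262.3 CPM in young mice and 307.0, 131.2 and 337.9 CPM in old mice. Again 3posI was the lowest library, below every young mouse, and 18C and 4posI were the highest. The log2 fold change was -0.03 (SE 0.31, 95% interval -0.74 to 0.68, edgeR adjusted p = 0.965). Without 3posI the estimate turned to 0.28 (edgeR adjusted p = 0.488).

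Mef2a (chr7:67231163-67372858, minus strand) encodes the second MADS-box factor, whose motif is frequent at microglial enhancers. The young mice had 271.6, 288.4, 180.7 and 195.3 CPM and the old mice 215.6, 220.3 and 266.3 CPM. The old libraries lay within the young range. For Mef2a the log2 fold change was 0.00 (SE 0.19, 95% interval -0.44 to 0.44, edgeR adjusted p = 0.999). In TPM the young mice had 108.1, 119.7, 92.80 and 74.01 and the old 55.21, 66.57 and 85.52, and 2posI and 3posI lay below every young mouse. The log2(TPM + 1) difference was -0.51 (limma unadjusted p = 0.0328, adjusted p = 0.23), so the size for Mef2a depended on the unit, and neither unit passed the threshold.

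The ratio of Mef2c to Mef2a in TPM was 1.67, 1.95, 1.70 and 2.41 in the young mice 14C, 18C, 23C and 29C and 3.37, 1.16 and 2.69 in the old mice 2posI, 3posI and 4posI. The old ratios lay on both sides of the young range.

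**Figure D3:**
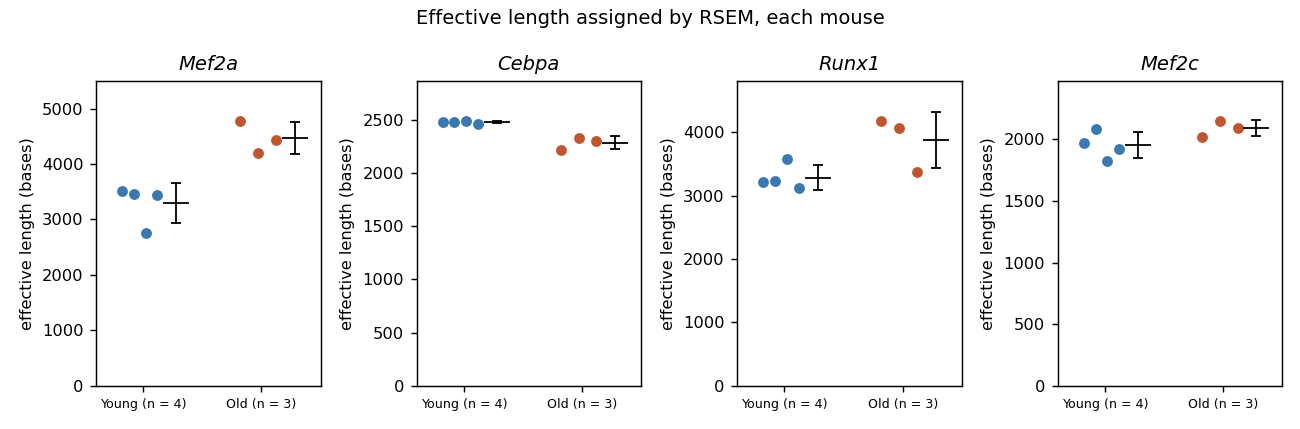
Effective length (vertical axis, bases, from 0) of Mef2a, Cebpa, Runx1 and Mef2c in each library, young in blue and old in orange, with the mean and SD of each age in black. The ages are apart for Mef2a (young 2750 to 3508, old 4202 to 4780 bases) and for Cebpa (young 2463 to 2492, old 2217 to 2334 bases).

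The unit mattered for Mef2a through the effective length, which is the mean length of a gene's transcripts weighted by the abundance that RSEM, the authors' quantifier, assigned to each. Mef2a, with 12 transcripts in the annotation, had effective lengths of 3508, 3468, 2750 and 3449 bases in young mice and 4780, 4202 and 4439 bases in old mice. Every old library was above every young one. Cebpa, with 2 transcripts, went the other way, with 2483, 2484, 2492 and 2463 bases in young mice and 2217, 2334 and 2301 bases in old mice. Runx1 averaged 3288 ± 204 bases in young (SD, n = 4) and 3877 ± 437 bases in old mice (SD, n = 3), and 4posI (3376 bases) lay inside the young range. The ages were apart in effective length for 2 of 9 genes and for 12.9% of all genes tested. Sall1 and Cebpb have 1 transcript each, so that their length is fixed. Gm20388, a gene model that spans Irf8 on the same strand with 0 shared exonic bases, was assigned 0 counts (rounded) in all 4 young mice and 547, 803 and 878 in 2posI, 3posI and 4posI; it was singled out after its values were seen. Whether reads of the ages were assigned to transcripts in the same way was not tested, and such a difference cannot be told apart from age.

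Maf (chr8:115682942-115707794, minus strand) encodes c-Maf, a basic leucine zipper factor of tissue macrophages. Its level was 71.71, 94.03, 61.82 and 67.70 CPM in young mice and 129.0, 73.19 and 103.3 CPM in old mice. Both 2posI and 4posI were above all young mice, while 3posI was above 14C, 23C and 29C and below 18C. Its log2 fold change was the furthest from 0 of the 9, at 0.46 (SE 0.21, 95% interval -0.02 to 0.95, edgeR adjusted p = 0.28). The unadjusted edgeR p was 0.0575. Maf was 1.38-fold higher in old mice, and its interval reached from 0.99-fold to 1.93-fold. The estimate was positive in all 7 fits with 1 library left out (0.26 to 0.65), and it was 0.65 without 3posI (edgeR unadjusted p = 0.00684, adjusted p = 0.132).

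Cebpa (chr7:35119293-35121928, plus strand) encodes C/EBP-alpha, a basic leucine zipper factor of myeloid differentiation. Its level was 203.2, 180.1, 225.0 and 144.6 CPM in young mice and 126.0, 163.4 and 165.4 CPM in old mice. Only the young mouse 29C fell within the old range. In the edgeR fit its log2 fold change was -0.31 (SE 0.18, 95% interval -0.72 to 0.09, edgeR adjusted p = 0.378), and it stayed negative in all 7 fits with 1 library left out (-0.42 to -0.20).

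Cebpb (chr2:167688915-167690418, plus strand) encodes C/EBP-beta, which drives inflammatory genes in activated macrophages and is needed for monocyte survival. The young mice had 464.9, 241.2, 342.2 and 439.8 CPM and the old mice 190.5, 698.1 and 299.7 CPM. The lowest and the highest library of the series were both old, 2posI and 3posI. The log2 fold change was 0.09 (SE 0.42, 95% interval -0.86 to 1.04, edgeR adjusted p = 0.926), and without 3posI it was -0.60 (edgeR adjusted p = 0.328). Cebpb shares 312 exonic bases with Tmem189 on the other strand, and the libraries were not stranded, so reads in that stretch cannot be told apart. Tmem189 had 1124 to 4084 counts per library and Cebpb 6392 to 27317, and both were highest in 3posI.

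The ratio of Cebpb to Cebpa in TPM was 3.91, 2.29, 2.61 and 5.15 in young mice and 2.30, 6.85 and 2.87 in old mice. In all 7 libraries Cebpb was therefore the higher of the pair.

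**Figure D4:**
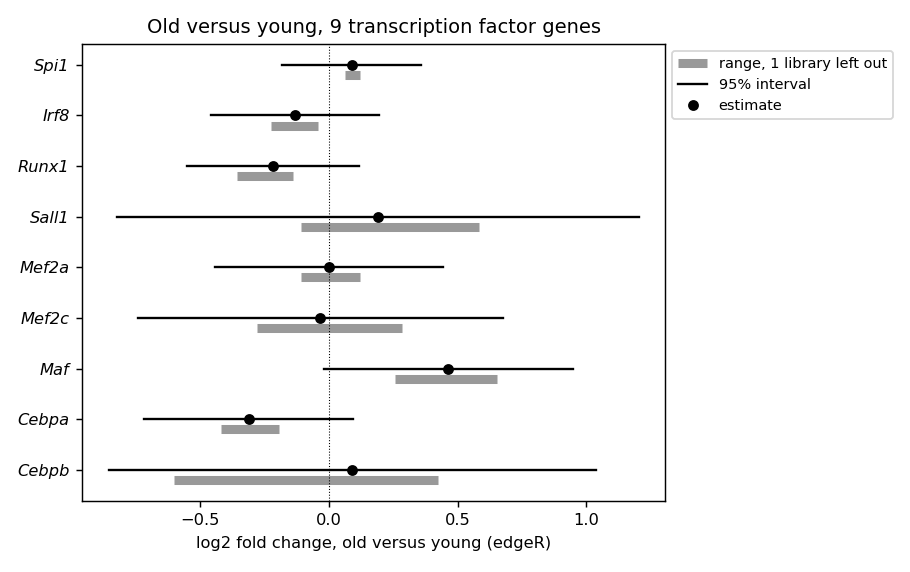
Log2 fold change of old versus young mice (horizontal axis, edgeR) for each gene, with the 95% interval (thin line) and the range of estimates when 1 library is left out (grey bar). Every interval spans 0; the estimates run from -0.31 (Cebpa) to 0.46 (Maf).

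The width of these intervals differed between genes. The biological coefficient of variation, edgeR's measure of spread between mice, was 41.1% for Sall1, 38.5% for Cebpb and 29.9% for Mef2c. It was 21.8% for Maf, 20.4% for Mef2a and 19.2% for Cebpa, and 14.9% to 16.8% for Spi1, Irf8 and Runx1. The median was 17.3% over the 3190 genes tested whose mean level reached 50 CPM. For Spi1 the interval left room for no more than a 1.28-fold increase or a decrease to 0.88-fold, whereas for Sall1 it reached from 0.56-fold to 2.30-fold. The SD of log2 CPM was larger in old than in young mice for 6 of the 9 genes, and for 68.1% of those 3190 genes.

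Set against the mean of 2posI and 4posI, 3posI differed by -1.81 for Sall1, by -1.30 for Mef2c, by -0.66 for Maf and by 1.55 for Cebpb on the log2 CPM scale. They were -0.29 for Irf8, -0.13 for Runx1, -0.12 for Mef2a, 0.06 for Spi1 and 0.18 for Cebpa. In the same library the summed microglia markers deviated from the mean of the 7 libraries by -1.02 on the log2 scale, and the monocyte and border-associated macrophage markers by 2.89 and 2.14. The part of these other cells in the levels of Sall1, Mef2c and Cebpb was not tested. The young mouse 23C also had little Sall1 (a deviation of -0.86), and there the microglia markers deviated by -0.11, with monocyte markers at 214.8 CPM, inside the range of the other young mice. The ratio of Cebpb to Sall1 in TPM, a pair chosen after its values were seen, was 52.16 in 3posI, 20.61 in 23C and 4.24 to 14.93 in the other 5 libraries.

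**Figure D5:**
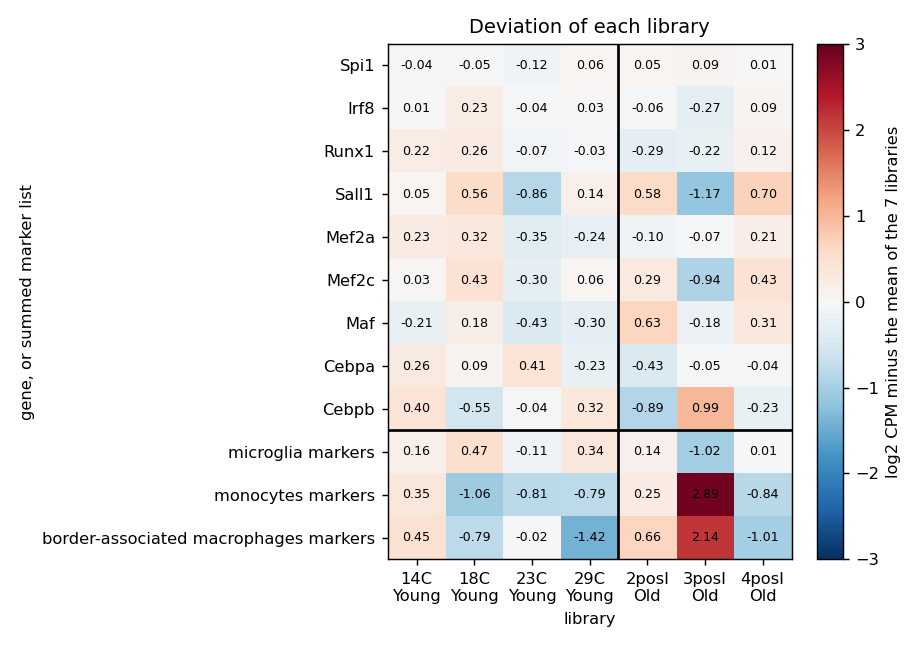
Deviation of each library (columns) from the mean of the 7 on the log2 CPM scale (colour and printed value), for the 9 genes and for the summed markers of microglia, monocytes and border-associated macrophages (rows). The column of 3posI holds the lowest values of Sall1 (-1.17), Mef2c (-0.94) and the microglia markers (-1.02) and the highest of Cebpb (0.99) and the monocyte markers (2.89).

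For each of the 9 genes the tested gene with the most similar profile was sought among 8146 genes averaging 10 CPM or more (the gene itself included), by Pearson's r of log2 CPM over 7 libraries. These are descriptions, since points share the library and its depth. A high r, and low values in the same libraries, follow from picking the best match among so many genes over 7 libraries. Sall1 was most like Arhgap5 (r = 0.994, Spearman's rho = 0.964), Mef2c most like St3gal6 (r = 0.992, rho = 0.893) and Cebpb most like Rabgef1 (r = 0.976, rho = 0.964). Irf8 was most like Rab39 (r = 0.996), Spi1 most like Rbm17 (r = 0.989) and Cebpa most like Pde12 (r = 0.981). Runx1 was most like Clk1 (r = 0.976), and Mef2a and Maf were most like Kmt2e and Cnnm3 (r = 0.974 each). Like Sall1, Arhgap5 was lowest in 3posI (36.03 CPM) and 23C (42.01 CPM) and had 72.38 to 118.1 CPM in the other libraries. Like Mef2c, St3gal6 was lowest in 3posI (41.99 CPM) and had 77.98 to 188.5 CPM elsewhere.

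Genes around these factors were counted as 6 lists of 141 genes in the same edgeR fit, with 134 entries tested. The entries include a repeat of Itgam, whose symbol has more than 1 entry. Values given for Itgam are those of its first entry. Only 1 gene was called, and 22.4% of the entries had an unadjusted p under 0.05, beside the 18.9% over all genes. The partners and corepressors gave the call. Ncor1, a corepressor that many of these factors recruit, rose from 66.10, 58.68, 61.72 and 73.27 CPM in young mice to 102.9, 102.3 and 107.5 CPM in old mice, every old mouse above every young one. Its log2 fold change was 0.68 (SE 0.11, edgeR adjusted p = 0.0421). The call was lost in each of the 7 fits with 1 library left out (edgeR adjusted p = 0.0524 to 0.151), while the estimate stayed at 0.64 to 0.75. It was also lost with effective length as an offset (0.54, edgeR adjusted p = 0.0769) and on log2(TPM + 1) (0.45, limma adjusted p = 0.133). Of the 18 genes of this list tested, 7 had an unadjusted p under 0.05 with higher levels in old mice and 1 with lower, and the median log2 fold change was 0.23.

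Among the relatives of the 9 genes (22 tested of 24 listed, 0 called), 5 had an unadjusted p under 0.05, all with higher levels in old mice, and the median log2 fold change was 0.05. Runx3, the relative of Runx1 known from lymphocytes and dendritic cells, had 0.63 to 3.05 CPM in young mice and 6.88, 45.67 and 5.25 CPM in 2posI, 3posI and 4posI (log2 fold change 3.40, SE 0.87, edgeR adjusted p = 0.101). Without 3posI the log2 fold change of Runx3 was 1.73 (edgeR adjusted p = 0.202). The highest value again fell on 3posI, the library with the highest summed monocyte and dendritic cell markers, whose part was not tested. Spib, an ETS factor close to PU.1, stayed under 1 CPM in every library; it is among the 5 but passed the count filter only through 3posI, where it was highest, so its difference is not read. Cebpg, the partner C/EBP-gamma, had 54.09 ± 4.35 CPM in young (SD, n = 4) and 75.68 ± 12.71 CPM in old mice (SD, n = 3), with a log2 fold change of 0.48 (edgeR adjusted p = 0.13). Per transcript length the difference of Cebpg was 0.05 on the log2(TPM + 1) scale, and 0.15 with effective length as an offset.

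Of the inhibitors (16 tested of 18, 0 called), 2 were higher and 2 lower at an unadjusted p under 0.05, with a median of -0.08. Hdac5, a class II deacetylase that represses MEF2 proteins, had 98.23 ± 12.40 CPM in young and 61.89 ± 12.61 CPM in old mice (log2 fold change -0.67, edgeR adjusted p = 0.10, and -0.32 with effective length as an offset). Irf2bp2, a corepressor of interferon regulatory factors, had 97.85 ± 19.85 and 146.7 ± 17.53 CPM (0.58, edgeR adjusted p = 0.151). Gata2, which opposes PU.1 in progenitors, had 2.36 ± 1.09 and 0.93 ± 0.20 CPM (-1.34, edgeR adjusted p = 0.155). None of these inhibitors passed the threshold.

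Of the signals upstream of the factors (20 tested of 21, 0 called), 3 were higher and 3 lower at an unadjusted p under 0.05, with a median of -0.08. Tgfb1, the ligand on which Sall1 depends in microglia, had 28.67, 36.89, 19.46 and 22.52 CPM in young mice and 10.04, 10.68 and 15.52 CPM in old mice, with the ages apart (log2 fold change -1.15, SE 0.26, edgeR adjusted p = 0.0778). Ski, a repressor of the SMAD proteins of that pathway, had 123.1 ± 10.65 and 183.7 ± 22.37 CPM (0.58, edgeR adjusted p = 0.0798). Jak2, a kinase of cytokine receptors, had 15.18 ± 2.23 and 26.17 ± 5.12 CPM (0.79, edgeR adjusted p = 0.0801). These 3 genes missed the threshold of 0.05 in edgeR and passed it with DESeq2 (adjusted p = 0.00143, 0.00174 and 0.0041). On simulated data 20.7% of the DESeq2 calls were false, against 2.78% with edgeR. There 200 of 17559 genes were changed, and counts were drawn with the dispersions that edgeR had estimated. Whether these shares hold for the calls in the real data was not tested. Tgfb1 also passed in edgeR with effective length as an offset (adjusted p = 0.042) and without a filter on low counts (adjusted p = 0.039). Ski also passed in limma-voom with sample weights (adjusted p = 0.05 after rounding). No difference was detected for Sall1 itself in any of these fits, but its edgeR interval reached from 0.56-fold to 2.30-fold. A link between the levels of Tgfb1 and Sall1 was not tested.

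Of the other myeloid transcription factors (29 tested of 30, 0 called), 2 were higher and 5 lower at an unadjusted p under 0.05, with a median of -0.19. Rxra, the retinoid X receptor, had 27.80 ± 2.95 and 44.53 ± 7.02 CPM (0.68, edgeR adjusted p = 0.0718). Rela and Relb, subunits of NF-kappaB, had log2 fold changes of -0.49 and -0.59 (edgeR adjusted p = 0.0886 and 0.0979). Of the target genes of the factors (31 tested of 33, 0 called), none was higher and 1 was lower at an unadjusted p under 0.05, with a median of -0.17. That gene was Fcrls, a microglial receptor, with 3903 ± 354.5 CPM in young and 2385 ± 777.8 CPM in old mice (-0.71, edgeR adjusted p = 0.176). Csf1r, the receptor for the growth factors that keep microglia alive, had 5088 ± 1169 and 3281 ± 1072 CPM (-0.63, edgeR adjusted p = 0.288), and Itgam, which encodes the CD11b used for sorting, had 840.7 ± 260.7 and 559.1 ± 92.4 CPM (-0.59, edgeR adjusted p = 0.298). In 3posI both Fcrls (1550 CPM) and Csf1r (2049 CPM) were at their lowest, and without it their log2 fold changes were -0.48 and -0.38 (edgeR adjusted p = 0.246 and 0.463).

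The promoters of these genes were searched for the binding letters of the factors themselves, because factors of this kind are known to act on one another's genes. RefSeq promoters on GRCm38.p6, from 250 bases before to 50 bases after each start, matched 7 of the 9 genes with 13 entries; Spi1 and Maf had no entry. Each motif was searched on both strands and set beside its share of all 32851 promoters. The MEF2 letters TAAAAATA were found in 1 of the 13 (2.72% of all promoters), the RUNX letters TGTGGT in 1 of the 13 (16.8%) and the MAF letters TGCTGA in 2 of the 13 (19.5%). The ETS core AGGAA stood in 7 of the 13 (66.7%). The PU.1 letters GAGGAAGT, which contain the ETS core, were in 0 of the 13 (3.20%), the IRF letters GAAANNGAA in 0 (8.56%) and the C/EBP letters TTGCNNAA in 0 (10.8%).

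These sequences show where a factor's letters stand in its own promoter (Mef2a and Runx1) or in those of genes that varied widely between mice (Mef2c and Sall1). Capitals mark the motif or its reverse complement, and each is read 5′ to 3′ along the gene's strand.
Mef2a, MEF2 letters, chr7:67372841-67372870, minus strand: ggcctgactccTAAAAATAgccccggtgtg
Runx1, RUNX letters as the reverse complement, chr16:92826030-92826057, minus strand: cctcataaacaACCACAgaaccacaagt
Mef2c, MAF letters, chr13:83573492-83573519, plus strand: gacctcctcccTGCTGAgccactatgct
Sall1, ETS core, chr8:89043028-89043054, minus strand: gcgcgggagttAGGAAgttcgccgctc

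In Mef2a the first capital base is at -1, directly before the start of transcription. In Runx1 the match begins at base 29 of the transcript, and another begins at base 37, in the lower-case letters that follow. The Mef2c match begins at -104 of promoter entry 3 and the Sall1 match at -181 of promoter entry 3. These matches are a description of the letters, not of binding.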

How the data were processed

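Bodipy+ microglia were profiled in 4 young and 3 old ischemic mice. Per the labels and the study's methods, low-input Smart-seq2 libraries without strand were filtered (FastQC 0.11.5, skewer), mapped with STAR to GRCm38 and quantified with RSEM on GENCODE m15 (STAR and RSEM versions: not given in the sources used here). Gene tables hold the expected counts, TPM, FPKM (not tested) and effective lengths that the authors deposited, 1 table per mouse; the labels name PureLink and the methods PicoPure for extraction. No batch is given, so batch and age cannot be told apart, and p-values set the difference between the ages against the spread between these mice.

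Expected counts were rounded. Kept were 18173 genes whose count exceeded 10 in 1 library or more, less 614 on X, Y or mitochondrial chromosomes placed by GENCODE vM21 (50462 of 50686 identifiers matched; 42 genes tested had no position). TMM factors were 0.952 to 1.05. edgeR 4.0.16 (R 4.3.3) quasi-likelihood tests compared the ages over all 17559 genes with Benjamini-Hochberg adjustment; limma 3.58.1 (voom, also with sample weights, and on log2(TPM + 1) or log2(TPM + 0.1)) and DESeq2 1.42.0 served as alternatives, with other scalings and filters and each library left out. log2 CPM has a prior count of 1. The edgeR, limma-voom and DESeq2 fits were tested on simulated data, with 200 genes of at least 10 CPM changed. Of the 2-fold changes, edgeR recovered 45%, limma-voom 43% and DESeq2 76%. For 4-fold changes the shares were 95%, 92% and 100%. False calls made up 2.78% of the calls with edgeR, 2.88% with limma-voom and 20.7% with DESeq2. Named are all 9 genes and, per list, genes past an adjusted p of 0.05 (at most 6), otherwise the 3 with the smallest p. Genes and lists were chosen with earlier results of these data known. Reads are not counted by molecular identifiers. Opposite-strand exon overlaps other than that of Cebpb were 51 to 440 bases (Mef2a, Runx1, Cebpa and Maf). Of the marker lists, 1 is not reported here.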

Additional observations from a re-analysis of the deposited data

Results flagged for a closer look

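With 4 young mice, a value was singled out where its gap to the nearest of the others, divided by the whole range, exceeded Dixon's 95% critical value. This held for 5 of 58 values, where 2.9 would be expected by chance at 1 in 20. The effective length of Mef2a in 23C was 2750 bases, against 3449 to 3508 bases in the other young mice (gap 0.922). Itgam in 23C had 454.7 CPM, against 931.4 to 1027 CPM (gap 0.833). T and NK cell markers in 23C summed to 0.294 CPM, against 0.0448 to 0.0650 CPM (gap 0.919). Monocyte markers in 14C summed to 480.7 CPM, against 181.2 to 218.6 CPM (gap 0.875). Neutrophil markers in 29C summed to 113.1 CPM, against 16.04 to 21.37 CPM (gap 0.945). The CPM of none of the 9 transcription factor genes met this rule, and the 3 old mice were too few for it, so the distance of 3posI was not tested in this way.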

How the results depend on the processing

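None of the 9 genes passed an adjusted p of 0.05 in any of the 18 alternative fits, nor 0.1 in the main one, and Irf8, Maf, Runx1 and Cebpa kept their direction in all 18. Over all genes, 141 calls became 318 with limma-voom and sample weights, 1399 with DESeq2, 288 without a filter, 64 on log2(TPM + 1), 71 on log2(TPM + 0.1), 637 at an adjusted p under 0.1, and 1 to 159 with 1 library left out (1 without 14C, 18C or 2posI, 2 without 29C, 14 without 23C, 85 without 4posI, 159 without 3posI). The 1 call among the listed genes became 3 with sample weights, 22 with DESeq2, 4 without a filter, 8 at an adjusted p under 0.1, 2 with effective length as an offset, and 0 to 2 with 1 library left out (2 without 4posI, 0 otherwise). Ncor1 itself was lost with the offset, on both TPM scales and with any library left out. With DESeq2 the genes named from the lists passed, apart from Spib, Csf1r and Itgam. Runx3 also passed in edgeR without a filter and Hdac5 in limma-voom with sample weights (adjusted p = 0.0465 each). Ski passed with sample weights too (limma-voom adjusted p = 0.05 after rounding). Sall1 turned to -0.0194 on log2(TPM + 1) and -0.0269 on log2(TPM + 0.1), and ranged from -0.11 to 0.58 with 1 library left out. Spi1 turned to -0.0390 and -0.0391 on these scales (0.06 to 0.12 with 1 library left out). Mef2a, at 0.00, turned to -0.0763 with sample weights, -0.0326 with upper-quartile factors, -0.0226 without a filter, -0.0008 with X, Y and mitochondrial genes, -0.43 with effective length as an offset and -0.51 on both TPM scales, with -0.11 to 0.12 when 1 library was left out. Mef2c turned to 0.0408 with sample weights (-0.28 to 0.28 with 1 library left out). Cebpb turned to -0.0812 with limma-voom, -0.46 with sample weights and -0.17 on both TPM scales (-0.60 to 0.42 with 1 library left out). Apart from the effective lengths, which enter TPM and the offset, the cause of these turns was not tested. The median of all genes moved by less than 0.1 on the log2 scale under every scaling, to -0.07 on log2(TPM + 1) at most. No paired analysis was possible because the labels give the mice no shared numbers. With 3 old mice, the intervals of Sall1, Cebpb, Maf and Mef2c reached 1.6-fold or more above the young level.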
